A study of Mus musculus with 4 samples.

Results

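The NRF2 oxidative stress targets are the transcription factor gene *Nfe2l2*, which encodes NRF2, and a set of antioxidant enzyme genes that it is known to activate. The list names 10 genes by symbol. Of these, *Nqo1*, *Gclc*, *Gclm*, *Srxn1*, *Txnrd1*, *Gsr*, *G6pdx*, *Prdx1* and *Nfe2l2* have a value, 9 of the 9779 genes with usable estimates, and *Hmox1* was not analysed here. RNA-Seq was performed on female mouse ESCs of the LF2 line (strain 129/J), with 1 library for each of 4 conditions. Cultures were treated for 24 hr with either the vehicle PBS or ascorbic acid (AA, vitamin C) at 50 μg/ml, combined with either the vehicle DMSO or GSK-J4 at 10 μM. The groups are therefore PBS+DMSO, PBS+GSK-J4, AA+DMSO and AA+GSK-J4. GSK-J4 enters cells and blocks histone demethylases of the JmjC family, and AA is an antioxidant that also promotes the activity of this class of enzymes. The cells were passed without feeder cells before treatment, and they are a single line in culture.

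NRF2 is held at a low level in unstressed cells by KEAP1, an adaptor that marks it for destruction by the proteasome. Oxidants and electrophiles modify KEAP1, NRF2 then accumulates, pairs with a small MAF protein and binds antioxidant response elements near its target genes. The targets make glutathione, reduce oxidised glutathione and thioredoxin, repair peroxiredoxins and supply NADPH. Because the pathway is controlled largely at the level of NRF2 protein, the RNA of its targets is commonly used to read its activity, and the RNA of *Nfe2l2* itself says less about it.

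The values are FPKM, read numbers corrected for transcript length and for the size of the library, and a change is given as log2((FPKM + 1)/(FPKM + 1)) between a pair of libraries. A 2-fold difference is a value of 1 or -1 on this scale. Each condition has 1 library, no test was run and no p-value is given, so no difference below is set against a spread between replicates. An additive fit of GSK-J4 and AA over the 4 libraries, which would take the difference between the paired ratios as error, was not made. No counting interval is given, because depth cannot be known from tables without counts. As a background, the same ratio was taken for every gene that reached 1 FPKM in at least 1 of the compared libraries, and for the 3862 genes whose mean FPKM lies in the range of the members, from 10.1 to 102. All 8 ESC markers examined, *Pou5f1* and *Nanog* among them, had a value, and their summed FPKM was 2172.5 (PBS+DMSO), 1939.8 (AA+DMSO), 1340.2 (PBS+GSK-J4) and 1204.5 (AA+GSK-J4). All 8 were lower with GSK-J4 in both comparisons, and the part of this in the members' values was not tested. The summed FPKM of all genes was also lower with GSK-J4, at 275575 against 360621 without AA and 271205 against 342327 with AA. The marker sums were not corrected for this difference between libraries. The feeder fibroblast markers with a value (4 of 10) summed to between 12.7 and 17.5 FPKM per library, with *Col1a1* between 2.83 and 4.28, and their part in the values below was not tested. The endoderm markers were not analysed here, and of the mesoderm and neural markers *Eomes*, *Pax6* and *Tubb3* had a value. *Tubb3* was between 66.1 and 103 FPKM, and *Eomes* and *Pax6* reached at most 2.06 and 1.44.

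The sequence that NRF2 recognises is shown first, because the list is one of NRF2 targets. The core of the antioxidant response element was searched as TGACNNNGC on both strands of RefSeq promoter windows, which run from 250 bases before to 50 bases after a gene's start (GRCm38.p6). Windows were found for 7 members, and *Txnrd1* has more than 1 start. The core was present in 6 of the 9 windows of these members, in 6 of the 7 genes, and in 12.4% of all 32851 windows of mouse genes. *Nqo1* was the member with windows and no match. A match is a description of the letters and not a measured binding site. The 5 matches below are written 5′ to 3′ on the strand of the match, with the core in capitals.
*Gclm*: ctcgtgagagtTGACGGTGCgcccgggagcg
*Txnrd1*: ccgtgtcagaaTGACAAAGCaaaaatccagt
*Prdx1*: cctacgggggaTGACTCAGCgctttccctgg
*G6pdx*: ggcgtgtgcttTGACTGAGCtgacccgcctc
*Nfe2l2*: tcagcccaccTGACTCCGCcatgccccgga
They lie at chr3:122245412-122245442 for *Gclm*, chr10:82859103-82859133 for *Txnrd1* and chr4:116685455-116685485 for *Prdx1*, all on the minus strand, at chrX:74428918-74428948 on the plus strand for *G6pdx*, and at chr2:75704884-75704913 on the minus strand for *Nfe2l2*. The match of *Prdx1* also contains TGACTCA, which is the sequence bound by AP-1 factors. The window of *Srxn1* is printed whole, because *Srxn1* had the highest ratio for GSK-J4 and for AA in the presence of GSK-J4.
*Srxn1*: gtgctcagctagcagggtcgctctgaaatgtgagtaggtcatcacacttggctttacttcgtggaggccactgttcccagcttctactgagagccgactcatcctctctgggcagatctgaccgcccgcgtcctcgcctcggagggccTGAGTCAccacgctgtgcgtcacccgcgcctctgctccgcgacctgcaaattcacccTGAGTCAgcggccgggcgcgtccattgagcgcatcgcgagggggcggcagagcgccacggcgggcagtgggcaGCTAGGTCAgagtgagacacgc
This stretch is chr2:152105274-152105573 on the plus strand. Its capitals mark TGAGTCA at 2 places and, near the end, the core of the antioxidant response element as it reads on the opposite strand. The AP-1 sequence TGANTCA was present in 7.81% of all windows and in 2 of the 7 genes, *Srxn1* and *Prdx1*. Both sequences together were present in 1.17% of all windows.

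Per length, the members were expressed at levels that differ by about an order of magnitude, and each had an FPKM of at least 1 in every library. *Gsr*, glutathione reductase (chromosome 8, 33653599 to 33698161), and *Txnrd1*, thioredoxin reductase 1 (chromosome 10, 82859048 to 82897765), had the highest mean FPKM, 95.3 and 102. *Prdx1*, a peroxiredoxin that removes hydrogen peroxide (chromosome 4, 116685555 to 116708383), had the lowest, at 10.1. Each member is represented by 1 coding sequence group, so a value may cover only some of the transcripts of its gene. The highest of the 4 libraries was at most 1.65 times the lowest, for *Gclm*, and at least 1.10 times the lowest, for *Txnrd1*. PBS+DMSO was the highest library for 7 members, and AA+GSK-J4 was the highest for *Nqo1* and *Srxn1*.

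**Figure D1:**
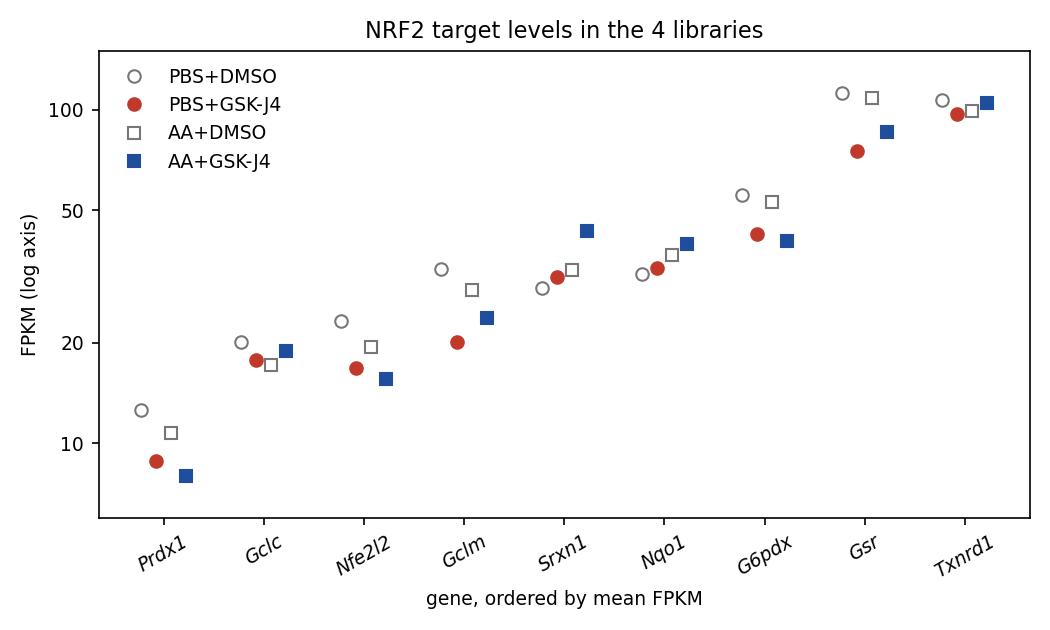
FPKM on a log axis for the 9 NRF2 genes in each of the 4 libraries, ordered by mean FPKM, with circles for PBS, squares for AA, open symbols for DMSO and filled symbols for GSK-J4. Each symbol is 1 library. For *Nqo1* and *Srxn1* the AA+GSK-J4 library is the highest, at 39.4 and 43.4 FPKM, and for *G6pdx*, *Prdx1* and *Nfe2l2* it is the lowest.

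The first question was whether the demethylase inhibitor was accompanied by an NRF2 response. No member differed by 2-fold between GSK-J4 and DMSO, without or with AA. A rise of 2-fold or more was found for 4.96% of all 9196 genes without AA and a fall of that size for 3.50%, and with AA the shares of 9139 genes were 4.13% and 3.38%. At these shares, a list of 9 genes holding none is near the background. Without AA, 7 of the 9 members were lower with GSK-J4, against 63.0% of all genes and 79.5% of the genes in the members' range of expression, and 2 were higher, against 37.0% and 20.5%. Their median log2 ratio was -0.38, against -0.17 for all genes and -0.35 for the genes in that range. With AA, 5 members were lower, against 62.2% of all genes and 78.5% in the range, and 4 were higher, against 37.8% and 21.5%. The median of the members was -0.27, against -0.16 and -0.31. All members lay between the 5th and the 95th percentile of the genes in that range in both comparisons. The range is broad, and relative to the median of each member's own expression decile the median of the members was 0.09 without AA and 0.21 with AA.

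Among the enzymes that are classically read as NRF2 targets, *Nqo1* encodes a quinone reductase (chromosome 8, 107387410 to 107403331). It had an FPKM of 32.2 (PBS+DMSO), 36.6 (AA+DMSO), 33.6 (PBS+GSK-J4) and 39.4 (AA+GSK-J4). These are log2 ratios for GSK-J4 of 0.06 without AA and 0.11 with AA, and the highest library was 1.23 times the lowest. *Srxn1* encodes sulfiredoxin, which restores overoxidised peroxiredoxins (chromosome 2, 152105624 to 152111427). Its FPKM was 29.2 (PBS+DMSO), 33.0 (AA+DMSO), 31.4 (PBS+GSK-J4) and 43.4 (AA+GSK-J4), so that the library with both agents stood above the other 3. The log2 ratios for GSK-J4 were 0.10 and 0.39. *Nqo1* and *Srxn1* were the only members with a positive ratio in both comparisons. Both stayed positive in all 10 alternatives of processing that give a ratio, but none of these could turn their sign. A pseudocount, a filter or the choice of coding sequence group cannot change the sign of a member, and each scaling and centring raised both ratios.

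Glutathione synthesis begins with glutamate-cysteine ligase, whose catalytic subunit is encoded by *Gclc* (chromosome 9, 77754738 to 77794486) and whose modifier subunit is encoded by *Gclm* (chromosome 3, 122245544 to 122268165). *Gclm* had an FPKM of 33.4 (PBS+DMSO), 28.8 (AA+DMSO), 20.2 (PBS+GSK-J4) and 23.8 (AA+GSK-J4). Both GSK-J4 libraries lay below both DMSO libraries, with log2 ratios of -0.70 without AA, the lowest of any member, and -0.27 with AA. *Gclc* had 20.1, 17.2, 17.8 and 18.9 FPKM in the same order. Its log2 ratios were -0.16 and 0.13, so that GSK-J4 and DMSO were not ordered the same way in both comparisons. The ratio of *Gclm* to *Gclc* in FPKM was 1.66 in PBS+DMSO and 1.68 in AA+DMSO, and 1.13 in PBS+GSK-J4 and 1.26 in AA+GSK-J4. This ratio within a library does not depend on how libraries are scaled to each other. In GENCODE M21 the locus of *Gclm* overlaps the antisense transcript Gm17494 and the pseudogene Gm6061, and 4.58% of the 50-base words in its transcripts also occur in transcripts of other genes.

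The reductases that recycle the small thiols differed from each other. *Gsr* had an FPKM of 112 (PBS+DMSO), 108 (AA+DMSO), 75 (PBS+GSK-J4) and 85.9 (AA+GSK-J4). Both GSK-J4 libraries were lower, with log2 ratios of -0.58 and -0.33. *Txnrd1* had 107, 98.9, 96.8 and 105 FPKM in the same order, log2 ratios of -0.14 and 0.08. The ratio of *Txnrd1* to *Gsr* in FPKM was 0.951 and 0.916 in the DMSO libraries without and with AA, and 1.29 and 1.22 in the GSK-J4 libraries. For genes in the same decile of expression as these reductases, the median log2 ratio for GSK-J4 was -0.60, and -0.54 with AA. *Gsr* sat at that median without AA and above it with AA, and *Txnrd1* lay above it in both comparisons.

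*G6pdx* encodes glucose-6-phosphate dehydrogenase, the entry enzyme of the pentose phosphate pathway and a source of NADPH (X chromosome, 74409035 to 74429087). Its FPKM was 55.4 (PBS+DMSO), 52.9 (AA+DMSO), 42.4 (PBS+GSK-J4) and 40.3 (AA+GSK-J4), with a log2 ratio of -0.38 in both comparisons. *Prdx1* had, in the same order, 12.6, 10.8, 8.88 and 8.0 FPKM, log2 ratios of -0.46 and -0.39. *Nfe2l2* (chromosome 2, 75675458 to 75704580) had 23.2, 19.4, 16.8 and 15.6 FPKM, log2 ratios of -0.45 and -0.29. For each of these 3 genes both GSK-J4 libraries lay below both DMSO libraries. By the share of shared sequence, the values of *G6pdx* and *Prdx1* are less certain than the others. Of their 50-base words, 16.9% and 8.81% also occur in transcripts of other genes, *Ikbkg* and *G6pd2* for *G6pdx* and 75 genes for *Prdx1*. Overlapping genes were found on the opposite strand for both loci, *Ikbkg* and *Mmachc*. The locus of *Txnrd1* overlaps the protein-coding gene *Eid3* on the same strand, and 0% of the 50-base words of *Txnrd1* are shared.

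The directions for GSK-J4 depend in part on how the libraries are scaled. The median log2 ratio of all genes without AA was -0.17 as deposited, 0.07 after division by the upper quartile and 0.17 after scaling to the same total. The numbers of genes that rose and fell by 2-fold without AA were 456 and 322 as deposited, and 808 and 96 at the same total, and with AA they were 377 and 309, and 633 and 99. Relative to the median of all genes, *Gclc* and *Txnrd1* turn positive without AA, at 0.01 and 0.03. *G6pdx* turns positive without AA after scaling to the same total, and *Gclm*, *Gsr* and *Nfe2l2* do so with AA. Under each scaling and centring *Prdx1* was lower with GSK-J4, both without and with AA. Centring on the expression decile also turned *Gsr* positive without AA and *G6pdx* positive in both comparisons. *Gclm* and *Nfe2l2* stayed lower without AA.

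**Figure D2:**
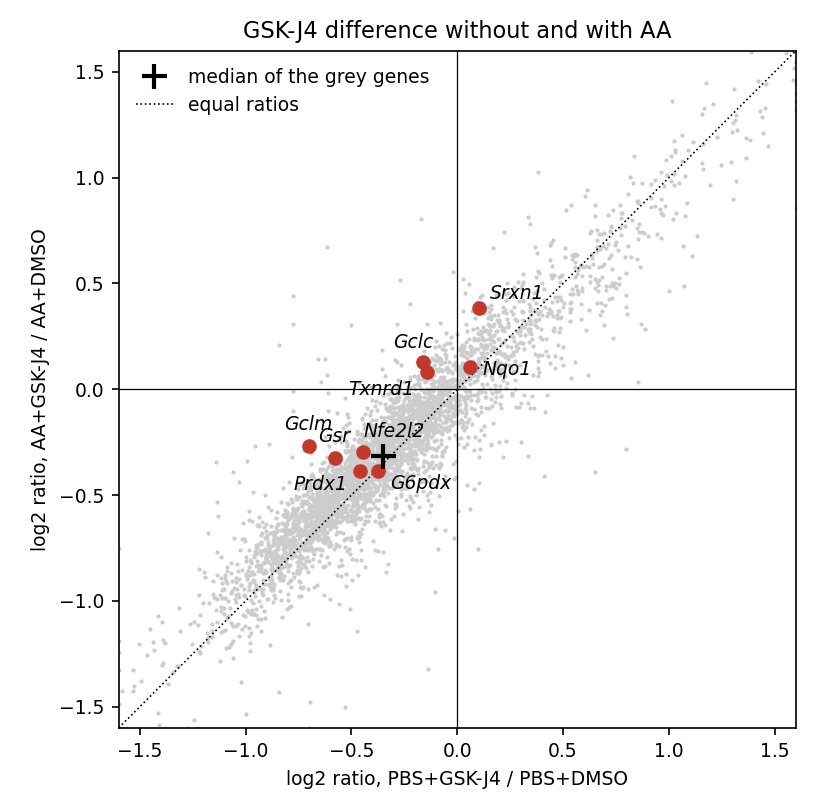
Log2 ratio for GSK-J4 without AA (horizontal) against that with AA (vertical) for the 9 NRF2 genes (red) and the 3862 genes in the same range of expression (grey, with values beyond the axes drawn at the edge). The axes share no library, and the cross marks the median of the grey genes at -0.35 and -0.31. *Srxn1* and *Nqo1* are positive on both axes, and *Gclm*, *Gsr*, *Prdx1*, *Nfe2l2* and *G6pdx* are negative on both.

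The second question was whether AA was accompanied by a change in the same genes. The AA comparisons set levels from the 2 deposited tables side by side, and the scaling of one table against the other is not stated in the sources used here. No member differed by 2-fold. Among all genes, 0.565% rose by 2-fold or more and 0.735% fell by as much with AA in DMSO, and 0.512% and 0.599% with AA in GSK-J4. In DMSO, 7 of the 9 members were lower with AA, against 62.4% of all genes and 67.2% of the genes in their range of expression, and 2 were higher, against 37.6% and 32.8%. Their median log2 ratio was -0.11, against -0.05 for all genes. *Nfe2l2* had the lowest ratio, -0.25. It was the only member outside the central 90% of the genes in the members' range of expression, which runs from -0.24 to 0.19. The central 90% of all genes runs from -0.38 to 0.36, and every member lay inside it. *Gclc*, *Gclm* and *Prdx1* had ratios of -0.21, -0.20 and -0.20. *Nqo1* and *Srxn1* were higher with AA, at 0.18 and 0.17. *Gsr* and *G6pdx*, at -0.06 and -0.07, turned positive after scaling to the same total, so that their direction depends on the scaling.

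More of the members were higher with AA in the presence of GSK-J4 than in DMSO. Of the 9 members, 6 were higher with AA, against 44.6% of all genes and 46.7% of the genes in their range of expression, and the median log2 ratio was 0.11, against -0.02 for all genes. *Srxn1* had a ratio of 0.45, *Gclm* of 0.23 and *Nqo1* of 0.22. These 3 genes lay above the central 90% of the genes in the members' range of expression, which runs from -0.25 to 0.21. *Gsr* followed at 0.19, *Txnrd1* at 0.11 and *Gclc* at 0.08. The central 90% of all genes runs from -0.43 to 0.33, and *Srxn1* was the only member above it. *G6pdx*, *Nfe2l2* and *Prdx1* were lower with AA, at -0.07, -0.10 and -0.13, where 55.4% of all genes and 53.2% of those in the range were lower. No sign of a member changed under the scalings and centrings in this comparison, and the other alternatives cannot change a sign.

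The difference between the AA ratio in GSK-J4 and the AA ratio in DMSO uses all 4 libraries once. It was above 0 for 8 of the 9 members (7 after scaling to the same total or centring on the expression decile, where *Nqo1* fell just below 0), against 56.3% of all 8972 genes and 61.7% of the genes in the members' range of expression. The median of the members was 0.22, against 0.03 for all genes and 0.04 for genes in that range, whose central 90% runs from -0.25 to 0.26. *Gclm* (0.43), *Gclc* (0.29) and *Srxn1* (0.28) lay above that interval, at percentiles 98.8, 96.5 and 96.3 of those genes, and *Gsr* (0.25) and *Txnrd1* (0.22) lay just inside it. *Nfe2l2* was at 0.15, *Prdx1* at 0.07, *Nqo1* at 0.05 and *G6pdx* at -0.01. The genes above this interval include both subunits of glutamate-cysteine ligase. The central 90% of all genes is wider, from -0.47 to 0.41, and *Gclm* was the only member above it. Read in the other direction, the differences say that the ratio for GSK-J4 was higher with AA than without it for the 8 members above 0. The difference could not be tested with 1 library per condition, and its part due to a single library cannot be told apart from that of the combined treatment. The median over the members was between 0.16 and 0.22 in the alternatives.

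**Figure D3:**
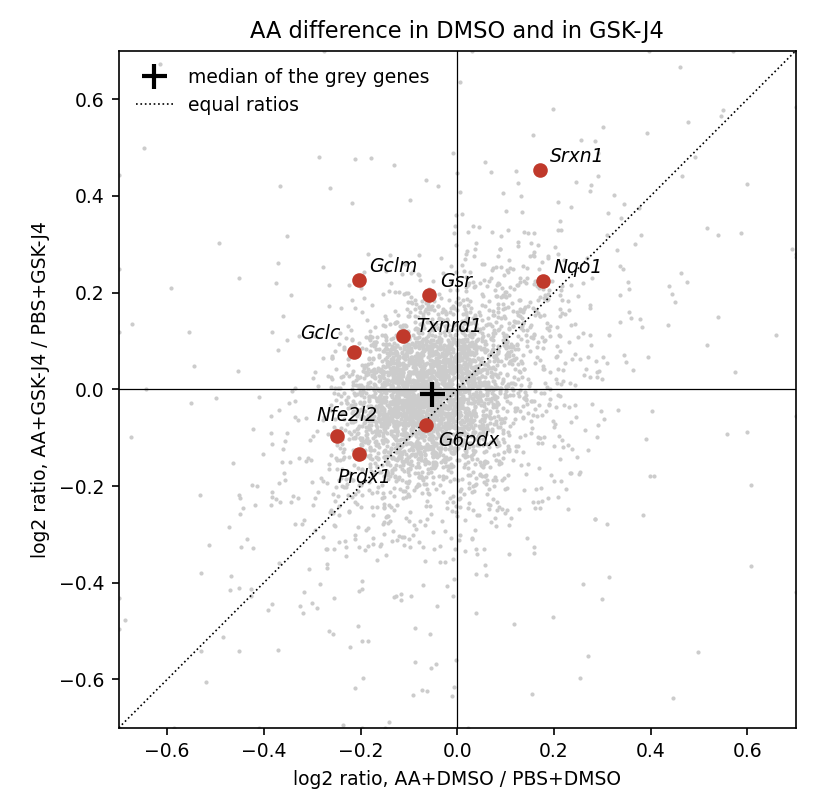
Log2 ratio for AA in DMSO (horizontal) against that in GSK-J4 (vertical) for the 9 NRF2 genes (red) and the 3862 genes in the same range of expression (grey, with values beyond the axes drawn at the edge). The axes share no library, the cross marks the median of the grey genes, and height above the dotted line is the difference between the AA ratios. 8 of the 9 genes lie above the line, *Gclm* farthest at 0.43, and *G6pdx* lies just below it at -0.01.

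The patterns of the members over the 4 libraries were compared as the Euclidean distance between log2(FPKM + 1) profiles, each centred on its own mean, among the 6561 genes that reached 5 FPKM in a library. Within the list, *Prdx1* and *Nfe2l2* were closest, at a distance of 0.0668, followed by *Gclc* with *Txnrd1* at 0.0768 and *Gclm* with *Gsr* at 0.110. *Srxn1* and *Prdx1* were farthest apart, at 0.829. Of all genes, *Bnip3l* was nearest to *Nfe2l2*, at 0.0149. *Srxn1*, the member with the highest mean ratio for GSK-J4, was most like *Rai14* at 0.0701, *Rab12* at 0.0784 and *Pafah2* at 0.0800. With 4 libraries many genes share such a pattern, and the distances are a description only.

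Genes around these members were taken from lists of NRF2 regulators, glutathione, thioredoxin and peroxiredoxin, NADPH, and heme, iron and detoxification genes. Of 107 such genes, 88 have a value. Without AA, 7 of the 87 that were compared rose at least 2-fold with GSK-J4 and 1 fell, where 4.96% and 3.50% of all genes did so. With AA, 5 rose and 1 fell, where 4.13% and 3.38% of all genes did so. The genes that rose in both comparisons were *Gpx3*, *Ephx1*, *Gsto1*, *Txnip* and *Sesn2*, and *Akr1b8* fell in both. *Blvra* and *Aldh1l1* passed 2-fold without AA, and *Blvra* also did so with AA when the ratios were centred on the median of all genes. *Aldh1l1* was below 1 FPKM in PBS+DMSO, at 0.602, and entered the comparison without AA only through the GSK-J4 library. With 1 FPKM required in both libraries, 6 of 85 genes of the lists rose without AA, beside 269 of all 8426 genes. No gene of these lists passed 2-fold for AA. Over the alternatives the number that rose was between 4 and 10 without AA and between 5 and 8 with AA, and *Gpx3*, *Ephx1*, *Gsto1* and *Txnip* were among them each time.

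Of the regulators of NRF2, 11 of 13 have a value and none passed 2-fold as deposited. *Sqstm1* passed it upward with AA when the ratios were centred on the median of all genes, and in both comparisons after scaling to the same total, and *Maff* did so in both comparisons at a pseudocount of 0.1. *Keap1* had an FPKM of 12.2 (PBS+DMSO), 12.8 (AA+DMSO), 9.19 (PBS+GSK-J4) and 9.22 (AA+GSK-J4), log2 ratios for GSK-J4 of -0.37 and -0.43. *Rbx1*, a subunit of the cullin ubiquitin ligase that works with KEAP1, had ratios of -0.81 and -0.71. *Sqstm1*, which encodes the autophagy receptor p62 that can sequester KEAP1, had 100.2, 105, 157 and 203 FPKM in the same order of libraries. Its ratios for GSK-J4 were 0.64 and 0.94, and for AA 0.07 in DMSO and 0.37 in GSK-J4. *Bach1*, a repressor that competes for antioxidant response elements, had ratios of 0.46 and 0.68, and its FPKM was between 6.29 and 11.2. The small MAF genes *Maff* and *Mafk* had ratios of 0.64 and 0.60, and of 0.58 and 0.58, at FPKM values between 0.483 and 3.29. The related factor gene *Nfe2l1* had ratios of 0.16 and 0.38. *Gsk3b* and *Btrc*, a kinase and a ubiquitin ligase adaptor of the other route of NRF2 degradation, had 0.13 and 0.18, and -0.49 and -0.35. *Dpp3*, which can bind KEAP1, had -0.73 and -0.67, and *Park7* had -0.78 and -0.80.

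Of the glutathione genes, *Gpx3*, a secreted glutathione peroxidase, rose without AA from 11.2 to 57.7 FPKM, a log2 ratio of 2.26. With AA it rose from 9.57 to 37.3 FPKM, a log2 ratio of 1.86. *Gsto1*, an omega class glutathione transferase, rose from 11.9 to 30.8 and from 11.2 to 28.2 FPKM, ratios of 1.30 and 1.26. In both genes the GSK-J4 libraries lay well above the DMSO libraries. *Ggct*, which degrades gamma-glutamyl peptides, had ratios of -0.93 and -0.96 for GSK-J4 and of -0.47 and -0.50 for AA. *Gsta4* had ratios of -0.70 and -0.60. For AA, *Gstm5* had the highest mean ratio of the list, with 0.37 in DMSO and 0.43 in GSK-J4. *Slc7a11*, which encodes the cystine transporter that feeds glutathione synthesis and was named after its values were seen, stayed below 1 FPKM in all libraries, at 0.0325 in PBS+DMSO, 0.0613 in AA+DMSO, 0.519 in PBS+GSK-J4 and 0.930 in AA+GSK-J4. Over the list the median ratio was -0.09 without AA and -0.01 with AA.

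Of the thioredoxin, peroxiredoxin and superoxide genes, *Txnip*, whose product binds and inhibits thioredoxin, rose without AA from 43.1 to 97.5 FPKM and in its presence from 31.8 to 72.3, a ratio of 1.16 in both. *Sesn2*, a sestrin that responds to stress, rose from 39.8 to 84.1 and from 40 to 85.5 FPKM, ratios of 1.06 and 1.08, and fell short of 2-fold without AA at a pseudocount of 5. *Txn2* and *Prdx4*, a mitochondrial thioredoxin and a peroxiredoxin of the endoplasmic reticulum, had -0.62 and -0.71, and -0.69 and -0.58. For AA, *Txnrd3* had the highest mean ratio, with 0.17 and 0.33, and *Txnip* the lowest, at -0.43 in both. The medians of the list for GSK-J4 were -0.37 and -0.33.

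Of the NADPH genes, the pentose phosphate enzymes *Tkt* and *Taldo1* had ratios for GSK-J4 of -0.74 and -0.94, and of -0.53 and -0.49, beside -0.38 for *G6pdx* in both comparisons. The one-carbon enzyme gene *Mthfd2* had 0.68 and 0.73. *Aldh1l1*, another folate enzyme gene, passed 2-fold without AA at 1.01, from 0.602 to 2.22 FPKM, and had a ratio of 0.62 with AA. For AA, *Mthfd2* had 0.13 and 0.19, and *Rpe* had -0.16 and -0.05. In the heme, iron and detoxification list, *Ephx1*, which encodes microsomal epoxide hydrolase, rose without AA from 9.41 to 43.8 FPKM and in its presence from 9.99 to 36.2, ratios of 2.10 and 1.76. *Blvra*, which encodes biliverdin reductase A, had ratios of 1.10 and 0.93. *Akr1b8*, an aldo-keto reductase gene, fell from 8.27 to 3.63 and from 9.05 to 3.79 FPKM, ratios of -1.0 and -1.07, and it did not pass 2-fold in either comparison when the ratios were centred on the median of all genes. *Akr1b3* had -0.78 and -0.73. For AA, the carbonyl reductase gene *Cbr3* had 0.52 in DMSO and 0.33 in GSK-J4, and *Hmox2*, the constitutive heme oxygenase gene, had -0.17 and -0.24.

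**Figure D4:**
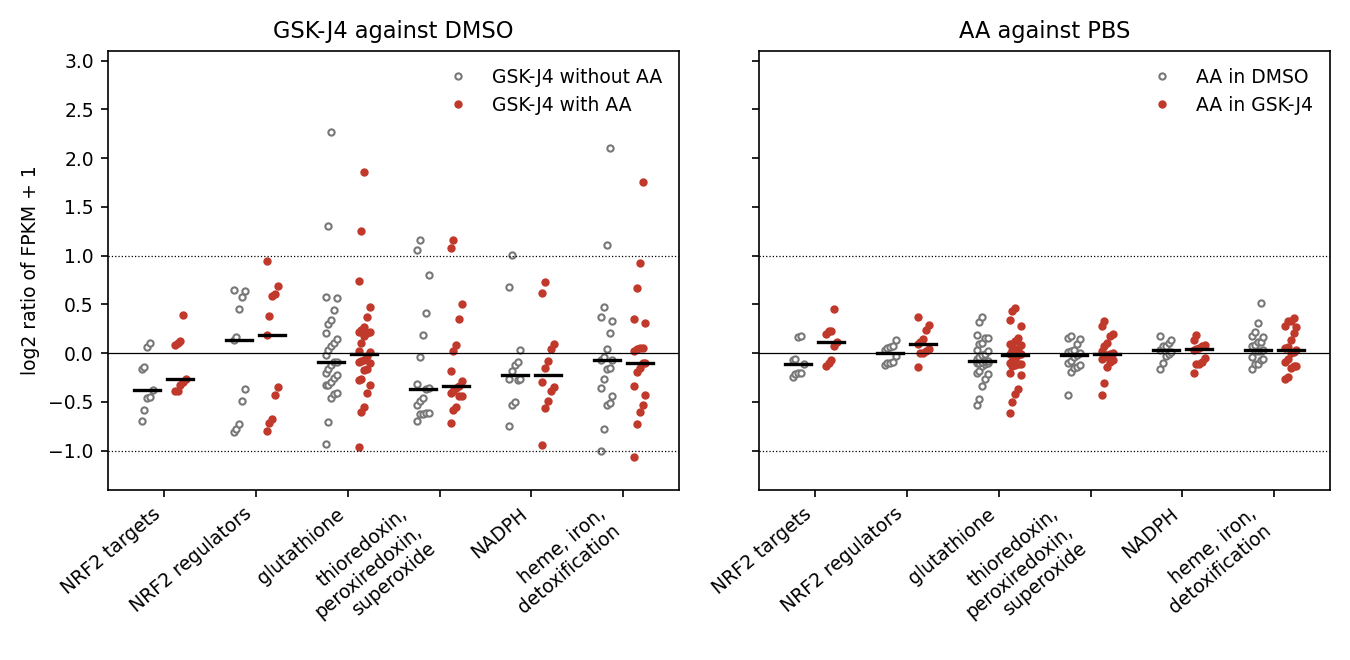
Log2 ratios for GSK-J4 against DMSO (left) and for AA against PBS (right) in the NRF2 genes and the other 5 lists, with 1 point per gene, open for the first and red for the second comparison of each panel, a black bar for the median, and dotted lines at 2-fold. No NRF2 gene crosses a dotted line, *Gpx3* at 2.26 is the highest point on the left, and no point on the right reaches 2-fold.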

How the data were processed

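LF2 ESC RNA was sequenced by the authors from 4 conditions, 1 library each. Per the paper's methods, duplicates were removed from single-end reads and TopHat2, Cufflinks2, CummeRbund and Genome Explorer were run through Maser. The submitters' processing notes name mm10. The scaling between libraries is not given in the sources used here. Removal of duplicates can lower highly expressed genes. The 2 tables deposited by the authors hold linear FPKM values in columns headed log10, for 11033 coding sequence groups. Their fold changes, p-values and q-values were not used.

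Here, FPKM was summed per gene. The 157 gene names for which an estimate had failed were left out. Log2 ratios used a pseudocount of 1 within genes reaching 1 FPKM in at least 1 of the compared libraries, and calls used 2-fold. There was no test. The ratio understates changes of low genes. Values of low genes are multiples of what 1 read is worth, but such steps gave no single answer for the relative depth of the GSK-J4 libraries (for AA+GSK-J4, 1.05 and 0.524 scored alike), so depth was taken as unknown.

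The members, the lists and the comparisons were chosen with earlier results of these data known. Named genes were all members, all NRF2 regulators reaching 1 FPKM in a library, the 2 highest and 2 lowest mean ratios for GSK-J4 and the highest and lowest for AA in each other list, and the 3 genes nearest in pattern to *Nfe2l2* and to *Srxn1*. Some genes that this rule names are not reported here. Gene loci overlapped the GENCODE M21 gene of the same name for all 9 members. The ratio and the 2-fold call were tested on simulated data, with planted changes far beyond 2-fold. That test does not bear on ratios as small as those of the members. Python 3.11.15, numpy 2.4.6, pandas 2.3.3 and matplotlib 3.10.9 were used.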

Additional observations from a re-analysis of the deposited data

Results flagged for a closer look

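The following genes had ratios of opposite sign in the paired comparisons, and none of these differences was tested. For GSK-J4 without and with AA, *Gclc* had log2 ratios of -0.16 and 0.13, a difference of 0.29, and *Txnrd1* had -0.14 and 0.08, a difference of 0.22. For AA in DMSO and in GSK-J4, *Gclm* had -0.20 and 0.23, a difference of 0.43, *Gclc* had -0.21 and 0.08, a difference of 0.29, *Gsr* had -0.06 and 0.19, a difference of 0.25, and *Txnrd1* had -0.11 and 0.11, a difference of 0.22. Each side is 1 pair of libraries, and the signs of *Gclc* and *Txnrd1* for GSK-J4 without AA and of *Gsr* for AA in DMSO depend on scaling.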

How the results depend on the processing

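No paired analysis was possible because the groups share fewer than 2 replicate numbers and the values come from no test. With 1 library per condition no replicate could be left out. An alternative counted as moving a value when it differed by more than 0.23 on the log2 scale, the SD over all genes of the difference between the GSK-J4 ratios divided by the square root of 2, or, for a count, by more than 1.5 times. No member passed 2-fold in any comparison under any alternative of scaling, filter or pseudocount, and a 1.5-fold threshold gave 1 lower member without AA, *Gclm*. *Gclm* fell short of it under each scaling and centring, at -0.53 to -0.33, whereas with AA *Srxn1* passed it upward at 0.64 by the upper quartile, 0.71 at the same total and 0.80 by the expression decile, and *Txnrd1* at 0.62 by the decile. The median of the members for GSK-J4 without AA was -0.38, and it moved to -0.10 after division by the upper quartile, to 0.0044 after scaling to the same total and to 0.090 after centring on the expression decile. With AA it was -0.27, and it moved to -0.023, 0.054 and 0.21 in turn. The median of all genes moved to 0.072 without AA by the upper quartile, and to 0.17 without AA and 0.14 with AA by the total. The upper quartile and the same total each apply a single factor to a library, and decile centring subtracts the median ratio of each decile. Causes of the shifts beyond these steps were not tested. As deposited, 456 genes were higher and 322 lower for GSK-J4 without AA, 377 and 309 for GSK-J4 with AA, 50 and 65 for AA in DMSO, and 47 and 55 for AA in GSK-J4. With a pseudocount of 0.1, there were 746 higher and 509 lower for GSK-J4 without AA, 662 higher and 493 lower for GSK-J4 with AA, 130 higher and 133 lower for AA in DMSO, and 117 higher and 157 lower for AA in GSK-J4. With a pseudocount of 5, there were 112 higher and 136 lower for GSK-J4 without AA, 99 higher and 102 lower for GSK-J4 with AA, 1 higher and 3 lower for AA in DMSO, and 0 higher and 8 lower for AA in GSK-J4. With a minimum of 5 FPKM in either library, there were 253 higher for GSK-J4 without AA, 207 higher for GSK-J4 with AA, 16 higher and 10 lower for AA in DMSO, and 11 higher and 17 lower for AA in GSK-J4. With a minimum of 1 FPKM in both libraries, there were 269 higher for GSK-J4 without AA, 220 higher for GSK-J4 with AA, 18 higher and 13 lower for AA in DMSO, and 12 higher and 20 lower for AA in GSK-J4. With centring on the median of all genes, there were 157 lower for GSK-J4 without AA, and 152 lower for GSK-J4 with AA. With the upper quartile, there were 126 lower for GSK-J4 without AA, and 121 lower for GSK-J4 with AA. With the same total, there were 808 higher and 96 lower for GSK-J4 without AA, and 633 higher and 99 lower for GSK-J4 with AA. With centring on the expression decile, there were 177 lower for GSK-J4 without AA, and 204 lower for GSK-J4 with AA. With a 1.5-fold threshold, there were 1063 higher and 1775 lower for GSK-J4 without AA, 923 higher and 1625 lower for GSK-J4 with AA, 185 higher and 196 lower for AA in DMSO, and 157 higher and 233 lower for AA in GSK-J4. The median difference between the AA ratios in GSK-J4 and in DMSO over the members was 0.16 to 0.22 under 10 alternatives added after the data were seen, and 8 members were above 0 except with the same total and with centring on the expression decile, which put *Nqo1* below 0 and left 7.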

Other observations

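The ATF4 stress genes, a list that shares *Slc7a11*, *Slc3a2* and *Sesn2* with the antioxidant lists, had higher ratios for GSK-J4 than the NRF2 targets in the same libraries. Of 14 ATF4 stress genes compared, 10 rose at least 2-fold with GSK-J4 without AA and 10 with AA, with medians of 1.17 and 1.28, where 4.96% and 4.13% of all genes did so. The count of 0 of 9 NRF2 targets is near that background, and the difference between the lists was not tested. This list was chosen with its response known. *Atf3* and *Vldlr*, which are among the genes that rose, were below 1 FPKM in PBS+DMSO (0.553 and 0.195) and in AA+DMSO (0.961 and 0.256). They therefore entered the GSK-J4 comparisons only through the GSK-J4 libraries. The highest ratios of the list were those of *Nupr1*, at 3.65 and 3.71, and *Ddit4*, at 3.21 and 3.22. The lowest were those of *Psat1*, at 0.16 and 0.20, and *Slc3a2*, at 0.44 and 0.37. For AA, *Trib3* had the highest mean ratio, with 0.71 in DMSO and 0.27 in GSK-J4, and *Ddit4* the lowest, with -0.49 and -0.48.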
